A study of Homo sapiens with 8 samples.

Results

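HMGN proteins are small, abundant chromatin proteins that bind nucleosomes, the units in which DNA is wrapped around histones. They loosen compact chromatin, compete with linker histone H1 for nucleosomes and are reported to affect transcription, DNA repair and cell differentiation. HMGN1 lies in the part of chromosome 21 whose triplication has been linked to B-cell leukemia in Down syndrome. The family was taken by name and not by any measured value: the rows HMGN1, HMGN2, HMGN3, HMGN4 and HMGN5, which are 5 of 23621 gene rows and all of which were above the minimum for testing.

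RNA was sequenced from NALM6, a human cell line established from leukemia of B-cell precursors (B-ALL), with a doxycycline-inducible HMGN1 construct in every library. The 8 libraries form 4 groups of 2, named by construct and treatment: SE DOX, SE vehicle, WT DOX and WT vehicle. SE is the HMGN1 S20,24E mutant, labelled as deficient in nucleosome binding, and WT is wild-type HMGN1. DOX is doxycycline at 100 ng/ml for 6 hours. The titles carry the tag HA and the letter A or B, the labels' biological replicate. Whether a construct line is 1 clone, how the A and B cultures were kept apart, and whether construct transcripts are counted on the HMGN1 row are not given in the sources used here, so p-values may measure technical spread only. No library was made from cells without a construct.

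The mutation changes 2 serines in the nucleosome-binding domain, the conserved stretch that gives the family its name. Serines 20 and 24 are counted without the initiator methionine and are residues 21 and 25 with it. The coding sequence around them is shown for all 5 genes because it is the element that the SE construct alters and that the paralogs share. Each line gives 45 coding bases, 5′ to 3′ on the coding strand, from the principal transcript of GENCODE release 29, with the codons of the aligned serines in capitals.
HMGN1 (chromosome 21): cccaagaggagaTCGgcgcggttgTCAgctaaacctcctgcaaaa
HMGN2 (chromosome 1): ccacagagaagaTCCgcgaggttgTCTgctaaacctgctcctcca
HMGN3 (chromosome 6): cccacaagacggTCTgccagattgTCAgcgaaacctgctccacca
HMGN4 (chromosome 6): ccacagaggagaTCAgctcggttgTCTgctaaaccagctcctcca
HMGN5 (chromosome X): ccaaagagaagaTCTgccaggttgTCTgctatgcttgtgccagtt

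Both serines are encoded in all 5 genes. Of the 15 residues shown, HMGN2, HMGN3 and HMGN4 each share 11 with HMGN1 and HMGN5 shares 10. The bases are less alike: of 45, HMGN2 and HMGN4 each share 34 with HMGN1, HMGN3 shares 31 and HMGN5 shares 29. Over the whole coding sequence HMGN2 and HMGN4 were the closest pair compared, with identical aligned bases at 86.3% of the shorter sequence's length. HMGN4 is known as an intronless gene that arose from a copy of HMGN2. HMGN1 and HMGN2 had identical aligned bases at 69.6% of the shorter sequence's length. HMGN5 differs in length, encoding 282 residues against 90 to 100 in the others, with a long acidic tail, and was left out of these whole-sequence alignments.

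These genes have many processed copies in the genome, which bears on how reads can be assigned. Of the 50-base stretches of the HMGN2 transcript, 34.2% occurred letter for letter, on either strand, in another annotated gene. They were spread over 33 other genes. Within the HMGN2 coding part the share was 79.6%. For HMGN1 the shares were 18.0% of the transcript, spread over 12 other genes, and 56.2% of the coding part. HMGN4 and HMGN5 shared no such stretch, and HMGN3 shared 11.5% of its stretches with its antisense gene HMGN3-AS1 and none in its coding part. The HMGN1 and HMGN2 values are therefore less certain than those of HMGN4 and HMGN5, because the authors' quantification could split such reads. In the stretches they share, HMGN3 and its antisense gene cannot be told apart without strand, which the sources used here do not give.

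Values are FPKM, fragments counted on a transcript relative to its length and to all mapped fragments, so levels can be compared between genes per length. The authors deposited an unnormalized and a normalized table, and the spike-in RNAs summed to between 7050 and 7166 FPKM in every library of the normalized table, against 5675 to 10042 in the unnormalized table. Read counts are not part of these tables, so depth is unknown. From the steps between low values, relative depth ran from 0.757 to 1.14 of that of WT vehicle A. The B-cell identity of the line was as labelled: 10 of 10 B-lineage markers were above the minimum, with summed unnormalized FPKM of 1913 to 2294 in SE and 2030 to 2311 in WT. None of 5 T-cell and none of 5 erythroid markers was, with CD3G, CD2, HBB and HBG1 at 0 throughout. Of the myeloid list only LYZ passed (list sum 1.52 to 2.26 in SE and 1.79 to 4.85 in WT, ELANE at 0). Of the adherent-cell list only VIM passed (226 to 263 in SE and 265 to 278 in WT, EPCAM and KRT18 at 0).

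HMGN1, the member that the construct encodes, was the most abundant of the family in all 8 libraries. Unnormalized HMGN1 stood at 1421 (A) and 1061 (B) FPKM in SE DOX, 1427 (A) and 1066 (B) in SE vehicle, 792.9 (A) and 795.3 (B) in WT DOX, and 809.2 (A) and 796.0 (B) in WT vehicle. Among 23621 gene rows it ranked between 61 and 125. All SE libraries were above all WT libraries, the A libraries of SE were above the B libraries, and the WT libraries were nearly alike.

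HMGN2, the member closest to HMGN1 in abundance, came next in each library. It stood at 562.5 (A) and 586.3 (B) FPKM in SE DOX, 573.7 (A) and 577.4 (B) in SE vehicle, 473.6 (A) and 619.7 (B) in WT DOX, and 468.6 (A) and 655.7 (B) in WT vehicle. Its ranks ran from 138 to 182. For HMGN2 the WT libraries spanned the SE values, with WT A low and WT B high.

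HMGN3, first described as a protein that binds the thyroid hormone receptor, was the third in abundance. It had 140.4 (A) and 162.5 (B) FPKM in SE DOX, 138.1 (A) and 160.9 (B) in SE vehicle, 155.8 (A) and 143.2 (B) in WT DOX, and 157.0 (A) and 144.0 (B) in WT vehicle. The letter with the higher value was B in SE and A in WT, in both treatments. The groups overlapped.

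HMGN4 had 57.30 (A) and 61.81 (B) FPKM in SE DOX, 60.17 (A) and 61.99 (B) in SE vehicle, 57.83 (A) and 66.88 (B) in WT DOX, and 57.60 (A) and 66.85 (B) in WT vehicle. HMGN5, which acts on euchromatin and binds linker histone through its acidic tail, was the least abundant. It had 36.27 (A) and 39.23 (B) FPKM in SE DOX, 36.52 (A) and 39.55 (B) in SE vehicle, 34.10 (A) and 40.76 (B) in WT DOX, and 34.34 (A) and 42.77 (B) in WT vehicle. For both genes B was above A in each group. The WT libraries of HMGN5 lay on both sides of its SE range, while for HMGN4 WT A lay within the SE range and WT B above it. HMGN5 still had a higher value than 74.89% to 80.10% of the 11465 genes tested, and HMGN4 than 85.59% to 88.29%.

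The order HMGN1, HMGN2, HMGN3, HMGN4, HMGN5 held in every library of both tables. In the unnormalized table the ranges of neighbours in this order did not overlap. In the normalized table HMGN4 (40.39 to 61.47 FPKM in SE and 70.39 to 72.61 in WT) and HMGN5 (25.57 to 39.30 in SE and 42.36 to 46.24 in WT) overlapped across libraries but not within any library. The plot of member levels in both tables shows the same ladder on each side, with the SE groups shifted down in the normalized table.

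**Figure D1:**
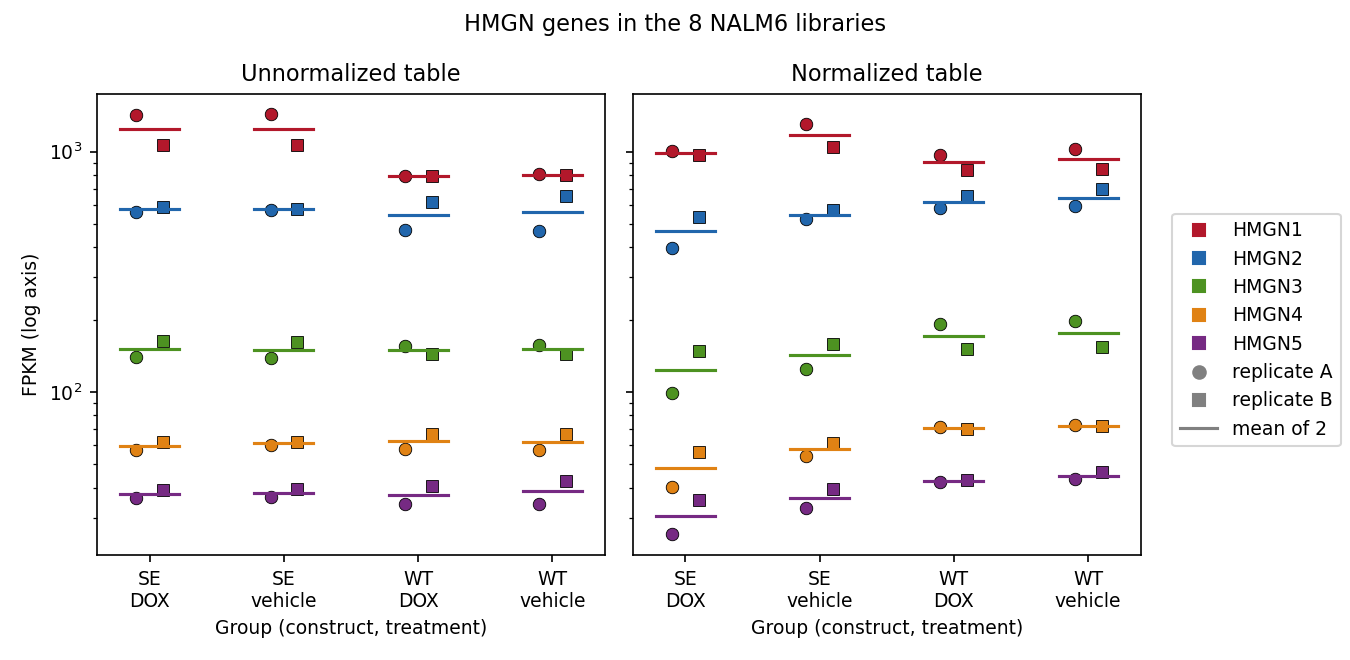
FPKM (log axis) of the 5 HMGN genes in each library of the unnormalized table (left) and the normalized table (right), by construct and treatment. Circles are replicate A, squares replicate B and lines the mean of 2. Unnormalized HMGN1 lies at 1061 FPKM or more in SE and at 809.2 or less in WT, while the other 4 genes overlap between constructs.

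Within the family the HMGN1 share was higher in SE, while the HMGN2 ranges met and the HMGN3 ranges overlapped. These shares were not tested. HMGN1 made up 55.5% to 64.1% of the family's summed FPKM in SE and 46.7% to 53.0% in WT. HMGN2 made up 25.4% to 30.7% in SE and 30.7% to 38.5% in WT, and HMGN3 6.18% to 8.50% in SE and 8.44% to 10.3% in WT. HMGN4 held 2.58% to 3.25% in SE and 3.77% to 4.01% in WT, and HMGN5 1.63% to 2.08% in SE and 2.25% to 2.51% in WT. The family together took 0.188% to 0.240% of all unnormalized FPKM in SE and 0.141% to 0.144% in WT. Since shares sum to the whole, a higher HMGN1 share lowers the others by construction.

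The ratio of HMGN1 to each paralog does not depend on how a library is scaled as a whole. HMGN1 to HMGN2 was 2.53 (A) and 1.81 (B) in SE DOX, 2.49 (A) and 1.85 (B) in SE vehicle, 1.67 (A) and 1.28 (B) in WT DOX, and 1.73 (A) and 1.21 (B) in WT vehicle. All SE ratios were above all WT ratios, although SE B at 1.81 and 1.85 was close to WT vehicle A at 1.73. HMGN1 to HMGN3 ran from 6.53 to 10.3 in SE and from 5.09 to 5.56 in WT. HMGN1 to HMGN4 ran from 17.2 to 24.8 in SE and from 11.9 to 14.05 in WT, and HMGN1 to HMGN5 from 26.9 to 39.2 in SE and from 18.6 to 23.6 in WT. The ranges of the constructs did not overlap for any of the 4 paralogs. These 4 ratios share HMGN1 and are not separate observations. HMGN1 by itself had all SE libraries above all WT libraries, a pattern that 7.95% of the genes tested had. How often ratios of other genes separate the constructs was not counted.

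With the treatments averaged within each letter, log2 of HMGN1 to HMGN2 was 1.32 (A) and 0.87 (B) in SE and 0.77 (A) and 0.32 (B) in WT, a difference of 0.55. An exact two-sided permutation test on these letter means, 2 against 2, gave p = 0.333, the smallest that 6 splits allow, so it cannot reach 0.05. DOX did not move the ratio in a shared direction. It was higher with DOX than with vehicle in SE A (2.53 and 2.49) and WT B (1.28 and 1.21), and lower in SE B (1.81 and 1.85) and WT A (1.67 and 1.73). The plot of HMGN1 to each paralog shows the same split between constructs 4 times.

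**Figure D2:**
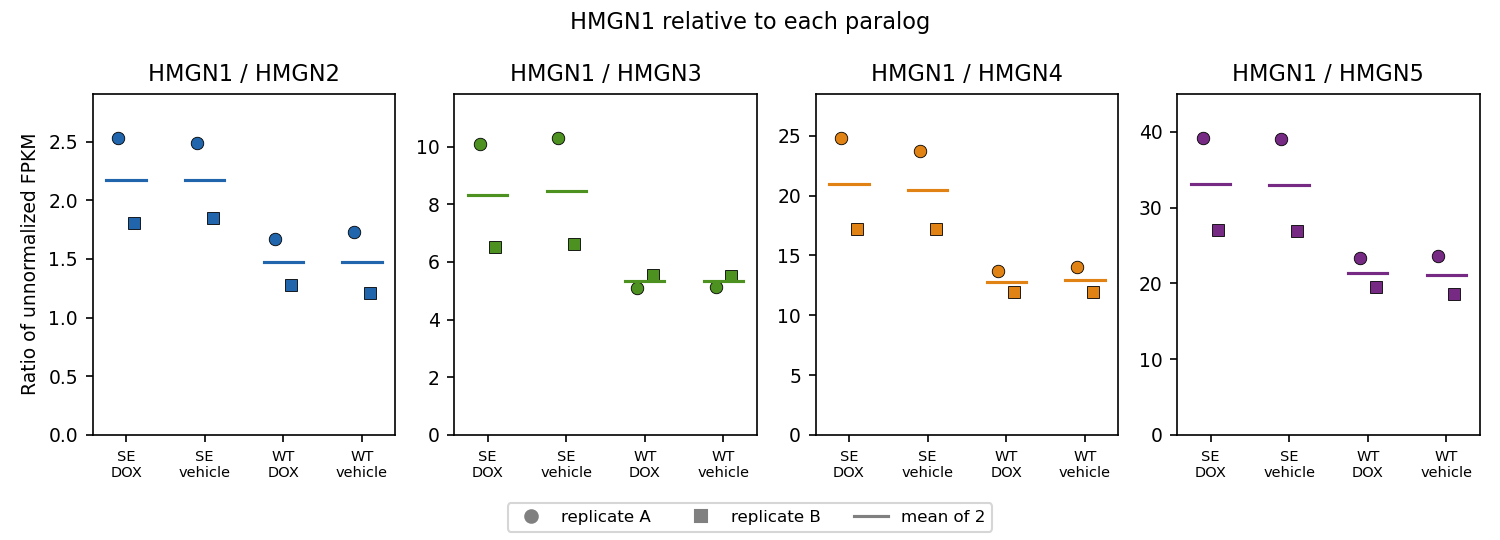
Ratio of unnormalized FPKM of HMGN1 to each paralog, per library, by construct and treatment, on axes from 0. Circles are replicate A, squares replicate B and lines the mean of 2. SE ratios to HMGN2 run from 1.81 to 2.53 and WT ratios from 1.21 to 1.73, and the constructs are apart for each of the 4 paralogs. All 4 ratios share HMGN1, which by itself is higher in all SE libraries, as are 7.95% of the genes tested.

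The comparison of constructs asked whether lines with the mutant and the wild-type protein differ in family RNA. On the unnormalized scale HMGN1 averaged 1244 ± 208 FPKM in SE and 798 ± 7.36 in WT (SD, n = 4 each), and the mean log2 difference was 0.62. Each n = 4 here and below counts libraries, the 2 letters in both treatments, and libraries of the same letter were alike. Of the 11465 genes tested, 243 (2.12%) had a difference at least as high. HMGN1 was 1 of 5 members with all 4 SE libraries above all 4 WT libraries, a pattern that 7.95% of the genes tested had. The log2 differences of HMGN2, HMGN3, HMGN4 and HMGN5 were 0.07, 0.00, -0.04 and 0.00, all with overlapping libraries. The median over all genes tested was -0.02. In the histogram of these differences HMGN1 stands in the upper tail and the paralogs stand near the middle.

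**Figure D3:**
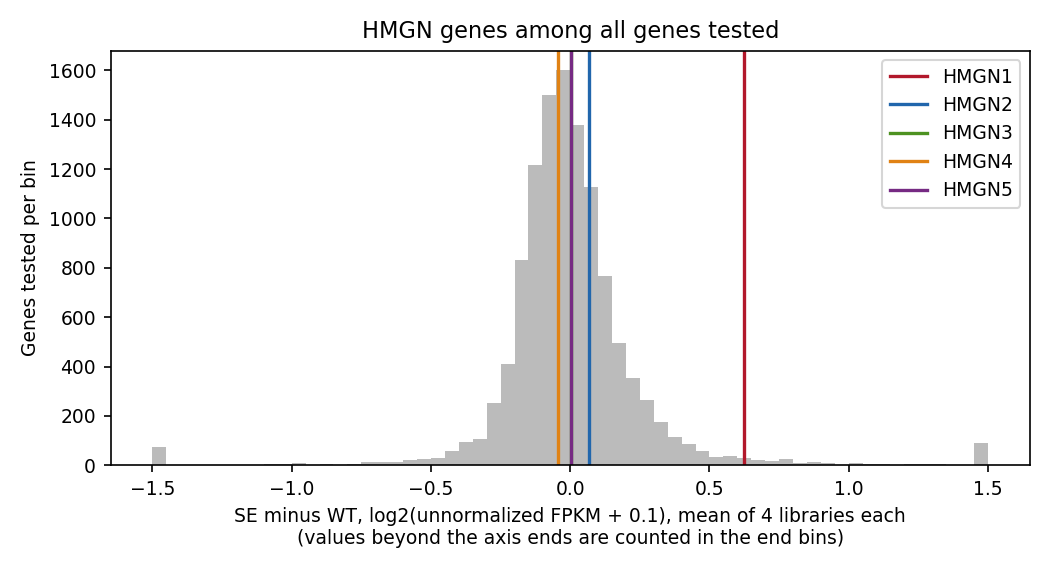
Histogram of SE minus WT differences in log2(unnormalized FPKM + 0.1) over 11465 genes tested, with a line for each HMGN gene. HMGN1 is at 0.62, where 2.12% of genes are as high or higher, while HMGN2 is at 0.07, HMGN4 at -0.04, and HMGN3 and HMGN5 lie on top of each other at 0.00.

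Construct and cell line cannot be told apart, since each construct is in its own line. In the normalized table the SE values were lower as a whole, but unevenly. The median log2 SE minus WT over all genes was -0.834 (DOX A), -0.502 (vehicle A), -0.220 (DOX B) and -0.138 (vehicle B). Spike-ins took 0.719% to 1.06% of unnormalized FPKM in SE and 0.531% to 0.569% in WT. In bulk RNA, fewer cells, less RNA per cell and more spike-in RNA cannot be told apart. Normalized HMGN1 averaged 1081 ± 153 FPKM in SE and 918 ± 92.7 in WT (SD, n = 4 each), and the constructs overlapped. limma (empirical Bayes over all genes, Benjamini-Hochberg adjustment) gave HMGN1 a log2 fold change of 0.23 (standard error 0.18, 95% interval -0.17 to 0.63, adjusted p = 0.253). HMGN2 was at -0.33 (adjusted p = 0.128) and HMGN3 at -0.40 (adjusted p = 0.0988) by limma.

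HMGN4 and HMGN5 passed the limma test and were lower in SE. HMGN4 stood at 40.39 (A) and 56.11 (B) FPKM in SE DOX, 54.34 (A) and 61.47 (B) in SE vehicle, 71.57 (A) and 70.39 (B) in WT DOX, and 72.61 (A) and 71.99 (B) in WT vehicle. Its constructs did not overlap, and SE DOX A was the lowest library. HMGN4 averaged 53.1 ± 8.98 FPKM in SE and 71.6 ± 0.936 in WT (SD, n = 4 each), which limma put at -0.45 on the log2 scale (standard error 0.16, adjusted p = 0.0416). HMGN5 averaged 33.3 ± 5.80 FPKM in SE and 43.7 ± 1.73 in WT (SD, n = 4 each), which limma put at -0.41 (standard error 0.15, adjusted p = 0.0464). Being called was common: 2 of 5 members passed, as did 60.5% of all genes tested (48 higher and 6888 lower), and the median over all genes was -0.43. All 4 SE libraries were below all 4 WT libraries for 3 of 5 members (HMGN2, HMGN4 and HMGN5), and for 65.2% of the genes tested. HMGN4 and HMGN5 thus lay near the median of the table, and HMGN1 lay above it. The call treats the DOX and vehicle libraries of a letter as separate samples. With letter means the limma adjusted p was 0.222 for HMGN4 and 0.228 for HMGN5, and with equal library medians it was 0.727 and 0.991. Each gene stayed past the threshold in 1 of 8 fits that left out a library, the fit without SE DOX B.

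On the unnormalized scale limma gave HMGN1 0.62 (95% interval 0.31 to 0.94, unadjusted p = 0.00269, adjusted p = 0.143), and 0 of 5 members passed, against 0.488% of all genes tested. HMGN1 was the only 1 of 5 members with an unadjusted limma p below 0.05 there, as had 1964 of the 11465 genes tested. The unnormalized fit too treats the DOX and vehicle libraries of a letter as separate samples. On the normalized scale the HMGN1 difference was 0.15 to 0.31 when each library was left out in turn. Without SE DOX B, HMGN2 (-0.43) and HMGN3 (-0.54) passed too in limma, with adjusted p of 0.0316 and 0.0286, while 8903 genes were called.

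The treatment comparison asked whether 6 hours of DOX changed HMGN1 or its paralogs. In no construct and letter did HMGN1 stand above its vehicle library after DOX, so the HMGN1 row does not check the treatment labels. On the unnormalized scale, DOX minus vehicle for libraries of the same letter gave 20 values over the 5 members, between -0.08 and 0.02 on the log2 scale, 6 above and 14 below 0. HMGN1 gave -0.01 in SE A and SE B, -0.03 in WT A and -0.001 in WT B. The value farthest from 0 was HMGN2 in WT B, at -0.08. Over all genes tested, the median size of this difference was 0.04 in SE A, 0.04 in SE B, 0.04 in WT A and 0.06 in WT B.

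Within SE, limma on the normalized table gave log2 fold changes with DOX of -0.25 for HMGN1, -0.25 for HMGN2, -0.22 for HMGN3, -0.28 for HMGN4 and -0.25 for HMGN5, with adjusted p of 0.537 to 0.544. The median over all genes was -0.24, so the members lay where the whole table lay. None of the 5 members passed, against 0.0523% of all genes called. None had an unadjusted p below 0.05 in this fit, against 50 of 11465 genes. Without SE DOX A, the library with the highest spike-in share (1.06% of unnormalized FPKM, against 0.763% in SE DOX B, 0.826% in SE vehicle A and 0.719% in SE vehicle B), the values were -0.27 for HMGN1, -0.03 for HMGN2, 0.07 for HMGN3, -0.04 for HMGN4 and -0.02 for HMGN5 (limma adjusted p of 1 each). That fit sets SE DOX B against both SE vehicle libraries and so also carries the difference between letters. The part of spike-in amount in these values was not tested.

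Within WT, the values were -0.04 for HMGN1 (95% interval -0.61 to 0.52), -0.06 for HMGN2, -0.04 for HMGN3, -0.03 for HMGN4 and -0.07 for HMGN5, with a limma adjusted p of 1 for each. None of the 5 members passed, against 0.0698% of all genes called, and none had an unadjusted p below 0.05, against 37 of 11465 genes. The effect in SE minus the effect in WT was -0.21 for HMGN1, -0.18 for HMGN2, -0.18 for HMGN3, -0.25 for HMGN4 and -0.18 for HMGN5 (limma adjusted p = 0.830 for each), beside a median of -0.21 over all genes and 0.0785% of genes called. None of the members passed here either, and none had an unadjusted p below 0.05, against 33 of 11465 genes. With equal library medians, the limma intervals of HMGN1 ran from -0.48 to 0.45 in SE and in WT. The plot of the fits shows how the members follow the median of all genes, with HMGN1 in the construct comparison apart from it.

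**Figure D4:**
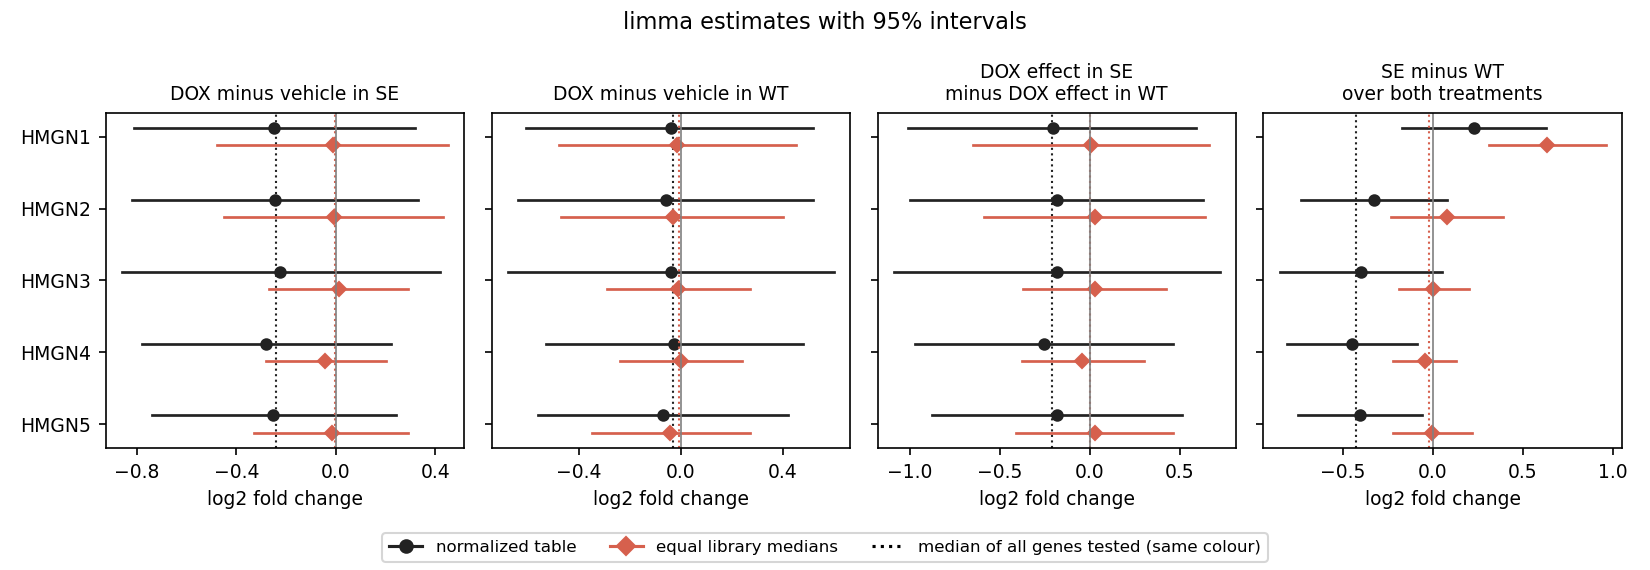
log2 fold changes (points) with 95% intervals (bars) of the 5 HMGN genes from limma in the 4 comparisons, for the normalized table (black circles) and with equal library medians (red diamonds). Dotted lines are the median of all genes tested in each. In the construct comparison HMGN1 is at 0.23 in the normalized table, where the median is -0.43, and at 0.64 with equal library medians.

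Replicate letters separated some members more than DOX did. On the unnormalized scale HMGN1 was higher in A than in B by 0.42 on the log2 scale in SE, in both treatments, and 6.22% of genes tested differed by at least this size. In WT the HMGN1 difference was 0.01. HMGN2 was lower in A by 0.44 in WT, a size that 8.85% of genes reached, and by 0.03 in SE. HMGN5 (-0.29) and HMGN4 (-0.21) were also lower in A in WT, while HMGN3 was higher in A in WT (0.12) and lower in A in SE (-0.22). Letters are no treatment and these differences were not tested. In the normalized table the HMGN1 difference between A and B was 0.18 in SE and 0.25 in WT, where the medians over all genes were -0.27 and 0.22. Relative to these medians HMGN1 was higher in A by 0.45 in SE and by 0.03 in WT, close to the 0.44 and 0.01 of the unnormalized table.

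The genes whose log2 levels followed HMGN1 most closely, with equal library medians over the 8 libraries, were GFOD1, TNFRSF10B, SORT1, TCFL5 and ZNF608, with Pearson r of 0.987 to 0.992 among 7109 genes with a mean of at least 10. GFOD1, for example, had 77.4 (A) and 53.5 (B) FPKM in SE DOX, 76.8 (A) and 54.4 (B) in SE vehicle, 40.2 (A) and 37.8 (B) in WT DOX, and 40.2 (A) and 35.3 (B) in WT vehicle. It too was highest in SE A, intermediate in SE B and lowest in WT. For HMGN2 they were MAPKAPK2, AURKB, INSIG1, PCK2 and ZXDC, with r of 0.985 to 0.992. AURKB, a mitotic kinase, had 81.6 (A) and 84.9 (B) FPKM in SE DOX, 80.8 (A) and 81.5 (B) in SE vehicle, 64.9 (A) and 88.9 (B) in WT DOX, and 63.4 (A) and 91.7 (B) in WT vehicle.

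Within the family, HMGN2 followed HMGN5 (r = 0.926) and HMGN4 (r = 0.816) but not HMGN3 (r = -0.407). HMGN1 followed none of its paralogs, with r of 0.122 for HMGN2, -0.383 for HMGN3, -0.431 for HMGN4 and -0.198 for HMGN5. These r values describe 8 libraries that share 2 lines and 2 letters, and such points are not independent.

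Of 25 genes whose products are known to compete with, modify, bind or act with HMGN proteins, 18 were above the minimum. They included 6 YWHA genes of the 14-3-3 proteins, of which YWHAE was the most abundant, the acetyltransferases EP300, CREBBP and KAT2B, and the kinases RPS6KA4 and RPS6KA5. None passed in any of the comparisons that involve DOX, where 0.0523% to 0.0785% of all genes were called on the normalized scale. In DOX minus vehicle within WT the smallest p values belonged to the linker histone gene H1FX (-0.14), the acetyltransferase gene KAT2B (0.08) and the histone kinase gene RPS6KA5 (0.05), with a limma adjusted p of 1 for each. In the construct comparison on the normalized scale 0 were called higher and 11 of 18 lower in SE, a share like the 60.5% of all genes called, with a median of -0.46 beside -0.43 over all genes. Among those of smallest p were ERCC8 (-0.51), a transcription-coupled repair gene, and RPS6KA5 (-0.41), with a limma adjusted p of 0.0401 for each. With letter means 0 of 18 passed, beside 338 of 11465 genes tested, and the limma adjusted p was 0.169 for ERCC8 and 0.196 for RPS6KA5. With equal library medians and small RNA names left out, 0 of 18 passed, beside 52 of 11163 genes. The median in that fit was -0.05 beside -0.02 over all genes.

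The genes beside HMGN1 on chromosome 21 had differences nearer to 0. SE minus WT on the unnormalized scale was -0.15 for PSMG1, a proteasome assembly gene, 0.05 for BRWD1, a bromodomain gene, 0.05 for WRB, which acts in tail-anchored protein insertion, and -0.01 for SH3BGR, while LCA5L was under the minimum. None of the 4 passed limma with equal library medians and small RNA names left out, a fit that called 52 of 11163 genes. On the normalized scale PSMG1 (-0.55), BRWD1 (-0.36) and WRB (-0.36) passed the test as lower in SE, beside 60.5% of all genes called, and SH3BGR (-0.40) did not pass. None of the 4 passed with letter means, where 338 of 11465 genes were called. HMGN1, at 0.23 in the same fit, was above each of them.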

How the data were processed

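Poly(A) RNA of 8 NALM6 libraries was measured. Each came from the same number of cells and received 1 µl of ERCC spike-ins diluted 1000-fold, synthetic RNAs added for scaling per cell. The authors deposited 2 FPKM tables with the same 23713 rows, 92 of them spike-ins. HISAT, Cufflinks 2.0.0 and hg19 are named per the submitters' processing notes. How the normalized table was made was not found in the sources used here. Tests used log2(normalized FPKM + 0.1), which understates changes of low genes, over 11465 genes with a mean of at least 1. limma 3.58.1 in R 4.3.3 was fitted to 4 group means with a mean-variance trend and Benjamini-Hochberg adjustment at 0.05. A check of the fit on simulated data drew each library independently, so it does not cover same-letter libraries that deviate together. Groups come from the labels. Alternatives were the table, library scaling, pseudocount, minimum, small RNA names (302 of the genes tested), replicate block, letter means and leaving out libraries. Sequences were aligned with Biopython 1.88. Coordinates are not printed, since the annotation is of another build. The members, lists and tests were chosen with earlier results of these data known. Named genes are the members, HMGN2P46, the 5 most like HMGN1 and HMGN2, the 3 listed partners of smallest p in the WT treatment and construct comparisons, and 5 neighbours. A gene that this rule selects is left out of the text.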

Additional observations from a re-analysis of the deposited data

How the results depend on the processing

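Depth is unknown, each group has 2 libraries, and same-letter libraries are alike, which limits every test here. No member passed in a comparison involving DOX under any alternative. The HMGN1 to HMGN2 ratio difference between SE and WT, 0.555 on the log2 scale, was 0.535 to 0.575 over its alternatives. With HMGN1 over the sum of its paralogs the difference was 0.583. The exact permutation p was 0.333 in each. HMGN1 SE minus WT stayed above 0 and short of the threshold throughout (limma adjusted p from 0.109 to 0.593). HMGN1 in A minus B was 0.184 in SE and 0.246 in WT with the normalized table, against 0.421 and 0.010 unnormalized. The medians over all genes were -0.269 and 0.219 normalized, against -0.019 and -0.004, so the values relative to the median were 0.45 and 0.03, against 0.44 and 0.01.

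Some values changed sign under scalings that move all genes alike. The median over all genes was -0.210 for the DOX effect in SE minus that in WT and -0.427 for SE minus WT in the normalized table, and -0.001 and -0.019 unnormalized. The DOX effect in SE minus that in WT was no longer negative but 0.009 for HMGN1, 0.030 for HMGN2, 0.029 for HMGN3 and 0.029 for HMGN5 with the unnormalized table, and 0.003, 0.025, 0.027 and 0.026 in the same order with equal library medians. With equal medians and no small RNA names it was 0.006, 0.028, 0.030 and 0.029, with or without the replicate block. SE minus WT turned positive for HMGN2 (0.069 unnormalized, 0.078 with equal medians and 0.079 when small RNA names were also dropped), for HMGN3 (0.002, 0.004 and 0.005) and, unnormalized, for HMGN5 (0.003). DOX within SE turned positive for HMGN3 (0.019, 0.014 and 0.021), and DOX within WT for HMGN4 (0.003 unnormalized, and with equal medians and no small RNA names). Dropping small RNA names from the unnormalized table left those values as they were. That setting, and the same with equal medians but no block, were added after the data were seen, as were letter means and the block for the partner and neighbour lists, where none passed in SE minus WT.

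With each library left out in turn, DOX within WT ran from -0.179 to 0.097 for HMGN1, from -0.177 to 0.058 for HMGN2 and from -0.220 to 0.141 for HMGN3, and DOX within SE ran from -0.513 to 0.067 for HMGN3. The effect in SE minus that in WT ran from -0.400 to 0.030 for HMGN2, from -0.473 to 0.107 for HMGN3 and from -0.422 to 0.053 for HMGN5. The value above 0 came without SE DOX A in each of the 4 that involve SE.

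Same-letter DOX and vehicle libraries deviated together (r of 0.72 in SE and 0.75 in WT over 11163 genes), but each comparison has only 2 such pairs, and libraries of different constructs did not (-0.01 to 0.18). With a replicate block limma called 181 genes for DOX in WT, 1663 for DOX in SE, 227 for their difference and 13 for SE minus WT, against 8, 6, 9 and 6936 without it. With equal medians and no small RNA names as well, the block gave 2, 0, 0 and 33 (437, 324, 376 and 854 at an unadjusted p under 0.05), and HMGN1 intervals for DOX of -0.11 to 0.10 in SE and -0.12 to 0.10 in WT. Under the block alone, DOX in SE gave limma adjusted p of 0.154 for HMGN1 (-0.248), 0.0702 for HMGN4 (-0.279, unadjusted p = 0.0329) and 0.0725 for HMGN5 (-0.253, unadjusted p = 0.0356). In that fit of DOX in SE, 6842 of 11465 genes had an unadjusted p under 0.05, and the median over all genes was -0.240. Under the same block HMGN4 and HMGN5 did not pass in SE minus WT (limma adjusted p of 0.157 and 0.160). The count for SE minus WT was 56 unnormalized, 50 with equal medians (29 higher and 21 lower), 57 with no minimum, 338 with letter means and 36 to 8903 with a library left out. The counts for DOX fell to 0 in WT and 1 in SE when small RNA names were dropped, and the fit of the SE groups alone called 138.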

Other observations

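HMGN2P46 was the only other row with an HMGN name and lies on another locus than HMGN2. Of the 50-base stretches of HMGN2, 8.23% were found in it letter for letter, on either strand. HMGN2P46 had 30.52 (A) and 31.64 (B) unnormalized FPKM in SE DOX, 30.19 (A) and 31.69 (B) in SE vehicle, 26.54 (A) and 33.00 (B) in WT DOX, and 24.02 (A) and 36.95 (B) in WT vehicle. Like HMGN2 it was low in WT A and high in WT B, and its SE libraries lay within the WT range. How far reads of HMGN2 contribute to this row was not tested.

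H1F0, which encodes a replacement linker histone that competes with HMGN proteins for nucleosomes, was under the minimum and was chosen here after its values were seen. It had 0.422 (A) and 0.303 (B) unnormalized FPKM in SE DOX, 0.464 (A) and 0.338 (B) in SE vehicle, 0.0151 (A) and 0 (B) in WT DOX, and 0.0237 (A) and 0.0104 (B) in WT vehicle. All SE libraries were above all WT libraries at these very low levels, and the difference was not tested. Of the genes tested, which leave out H1F0, 7.95% had this pattern. Among the other linker histone genes of the 25 listed, H1FX had it too (59.0 to 66.3 FPKM in SE and 41.4 to 57.6 in WT). The listed HIST1H1 genes overlapped between constructs.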
